A study of Homo sapiens with 2 samples.

Results

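The 10 genes described here belong to the Notch pathway and were taken by name from the 41582 gene symbols to which the sequenced transcripts could be matched. They are the receptors NOTCH1, NOTCH2 and NOTCH3, the ligands JAG1, JAG2 and DLL1, the DNA-binding factor RBPJ, and the target genes HES1, HEY1 and HEYL. Their values came from U87 cells, an established human glioblastoma line with the genotype given as WT, grown in RPMI with fetal bovine serum. One culture received the vehicle DMSO for 72 h and the other received CCA-1.1, a curcumin analog, for 72 h, and the study compared their mRNA by sequencing. The concentration of CCA-1.1 in the sequenced culture is not given in the sources used here. There was 1 library per condition, so no difference below has a replicate error, and no test was made.

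Notch receptors are cut and activated when a Jagged or Delta ligand on a neighbouring cell binds them. Proteolysis by an ADAM protease and then by gamma-secretase frees the intracellular domain, which enters the nucleus, joins RBPJ and recruits Mastermind coactivators. The HES and HEY genes, which encode transcriptional repressors, are the best-known targets, and in brain tumours the pathway is known for maintaining stem-like cells.

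Most of the Notch genes of U87 cells, like most genes, differed by less than 1.2-fold between the libraries. Levels are in TPM (transcripts per 1000000), which divides reads by transcript length and library total, and a gene is the sum of its transcripts. Differences are log2((CCA-1.1 TPM + 1) / (DMSO TPM + 1)). Of the 10 genes, 8 had a mean of at least 1 TPM, and their differences ran from -0.14 for RBPJ to 0.35 for HES1, with a median of 0.12. Over all 15485 genes at or above that mean, the median was 0.03. None of the 8 passed 2-fold, a size that 3.56% of all these genes passed. Past 1.2-fold there was 1 gene, HES1, higher in the CCA-1.1 library, against 15.5% of all genes in that direction. None was lower by that size, against 9.3% of all genes. In the higher direction alone, the share of Notch genes past 1.2-fold, 1 of 8 or 12.5%, was thus near the 15.5% of all genes. By sign alone, 7 of the 8 were higher in CCA-1.1, beside 56.1% of all genes. The number was 6 with curated transcripts only and 5 with the highest transcript of each gene only. JAG2 was under 1 TPM in both of these, and HEY1 was at -0.0048 in the latter. In bulk RNA, fewer cells that express a gene and less of its RNA per cell cannot be told apart.

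**Figure D1:**
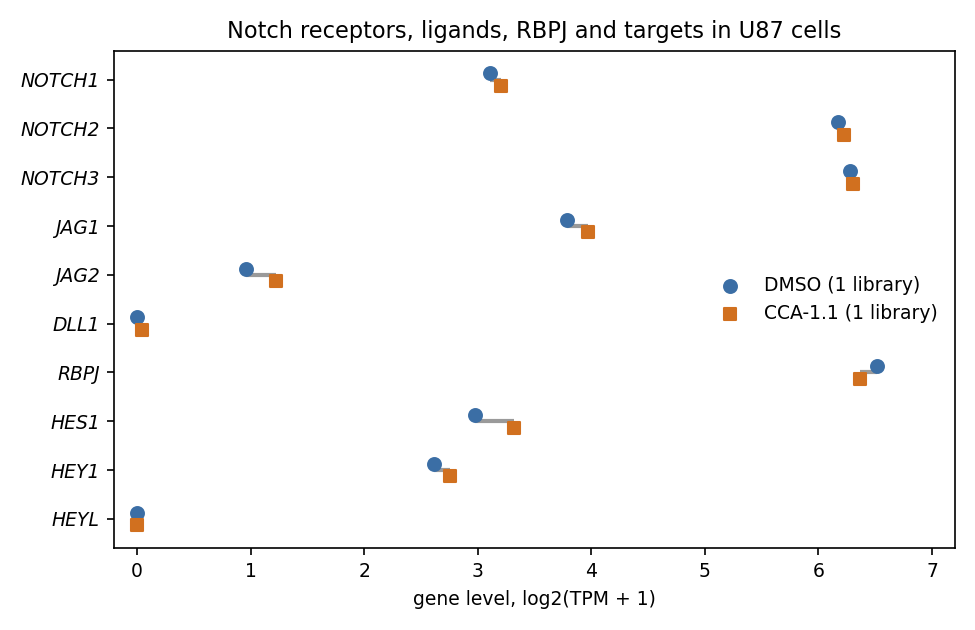
Level of each of the 10 Notch genes as log2(TPM + 1) in the DMSO library (circles) and the CCA-1.1 library (squares), with 1 library each. The grey bar joins both values, and the longest bar is that of HES1, from 6.86 to 9.01 TPM.

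HES1 is shown first by sequence because it had the largest difference of the 10 genes with a pseudocount of 1 TPM and is the classical target of RBPJ. The 250 bases before its start site are printed with the same stretch of HEYL and HES4, family members that were listed at 0 TPM in both libraries. RBPJ is known to bind the core TGGGAA. Capitals mark every match to TGGGAA or, on the other strand, TTCCCA. The stretches are from RefSeq on GRCh38.p14, read 5′ to 3′ on the strand of the gene. HES1 is at chr3:194135898-194136147 (plus strand), HEYL at chr1:39639644-39639893 (minus strand) and HES4 at chr1:1000098-1000347 (minus strand).
HES1: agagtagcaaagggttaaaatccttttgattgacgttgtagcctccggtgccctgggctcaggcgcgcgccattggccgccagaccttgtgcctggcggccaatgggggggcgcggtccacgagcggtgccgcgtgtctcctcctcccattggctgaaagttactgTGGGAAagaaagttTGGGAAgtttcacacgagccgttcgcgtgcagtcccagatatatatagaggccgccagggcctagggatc
HEYL: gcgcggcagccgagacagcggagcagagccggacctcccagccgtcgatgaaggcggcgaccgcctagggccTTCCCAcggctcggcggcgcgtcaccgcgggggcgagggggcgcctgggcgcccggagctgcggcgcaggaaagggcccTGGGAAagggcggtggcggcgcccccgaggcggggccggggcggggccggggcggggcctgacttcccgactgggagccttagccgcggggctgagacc
HES4: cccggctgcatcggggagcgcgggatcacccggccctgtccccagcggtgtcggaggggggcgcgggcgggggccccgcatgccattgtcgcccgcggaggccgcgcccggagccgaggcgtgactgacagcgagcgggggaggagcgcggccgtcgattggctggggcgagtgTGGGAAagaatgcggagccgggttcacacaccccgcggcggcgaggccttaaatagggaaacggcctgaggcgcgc

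In the HES1 stretch the first bases of the matches lie at -84 and -70, counted so that the base just before the start site is -1, and both read TGGGAA on the strand of the gene. HEYL holds matches at -178 and -99, of which the first is on the other strand, and HES4 holds 1 at -76. Of the other target genes with a window, HES5 holds 2 matches, at -224 and -80, and HEY2 holds 1. HES7, HES2 and NRARP hold none. The G+C content was 59.2% in HES1, 79.6% in HEYL and 74.8% in HES4. Among the 35116 RefSeq windows searched over the same length, 20.8% held at least 1 match and 2.90% held 2 or more. Windows were found for 8 of the 10 Notch genes, all but DLL1 and HEY1. A match was present in those of HES1, HEYL and 1 of the 5 start sites of RBPJ, where matches lie at -115 and -72, and in no window of the receptors, JAG1 or JAG2. HES1 protein is also known to bind N boxes. The letters CACNAG or their reverse complement CTNGTG occur 3 times in the HES1 stretch, at -165, -132 and -58, and at least once in 32.04% of all windows. These matches are letters in a window and do not show binding.

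Among the targets, HES1 (Entrez identifier 3280, on chromosome 3 of GRCh38.p14 from 194136148 to 194138732 in RefSeq, the source of all gene positions below) encodes a repressor that keeps progenitor cells undifferentiated. Its level was 6.86 TPM in the DMSO treated culture against 9.01 TPM in the culture treated with CCA-1.1. The CCA-1.1 library was 31.3% higher, which is 0.35 on the log2(TPM + 1) scale. The table lists 1 HES1 transcript, NM_005524.4, so this value does not depend on how reads were divided among isoforms. Of the 15485 genes, 89.8% had a lower difference than HES1. Among genes with a mean of 5 to 10 TPM, a window chosen after the value of HES1 was seen, 18.7% were past 1.2-fold higher in CCA-1.1. The 5th and 95th percentiles in this window were -0.46 and 0.58, so HES1 lay inside the range of most genes at its level.

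HEY1 (23462, on chromosome 8 from 79764010 to 79767767) encodes a repressor related to HES1 that is known from vascular and neural development. It had 5.14 TPM with DMSO against 5.75 TPM with CCA-1.1, with a difference of 0.14. Its main transcript, NM_012258.4, was level at 5.05 TPM and 5.03 TPM. The gain of the gene lay in NM_001040708.2, listed at 0 with DMSO against 0.72 TPM with CCA-1.1, where it made up 12.5% of the gene. A further transcript, NM_001282851.2, was at 0.09 TPM in DMSO and listed at 0 in CCA-1.1. HEYL (26508, on chromosome 1 from 39623435 to 39639643), the third HEY gene, was listed at 0 in both libraries for both of its transcripts. No fold change can be given for it.

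**Figure D2:**
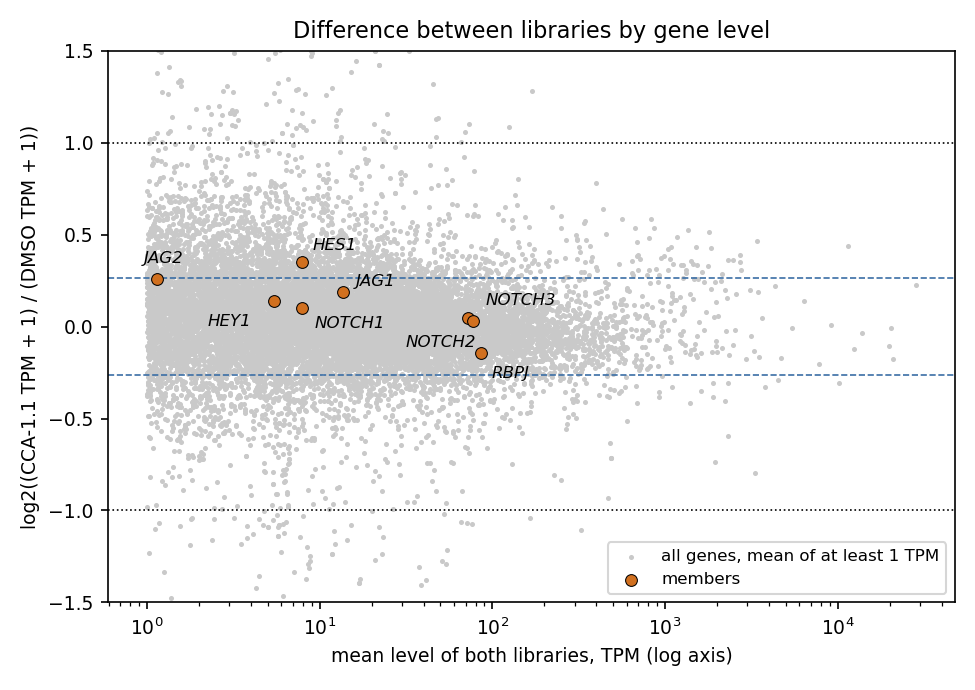
Difference between the libraries, log2((CCA-1.1 TPM + 1) / (DMSO TPM + 1)), against the mean level in TPM on a log axis for the 15485 genes that average at least 1 TPM (grey) and the 8 Notch genes among them (orange). Dashed lines mark 1.2-fold and dotted lines 2-fold, 385 genes beyond 1.5 in either direction are not drawn, and of the Notch genes HES1 alone lies outside the dashed lines.

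The receptors differed little between the libraries. NOTCH3 (4854, on chromosome 19 from 15159038 to 15200995), a receptor known from vascular smooth muscle, had 76.5 TPM with DMSO against 78.1 TPM with CCA-1.1, with a difference of 0.03. NOTCH2 (4853, on chromosome 1 from 119911553 to 120069662), the other receptor at a high level, was at 71.2 TPM and 73.7 TPM, a difference of 0.05. NOTCH1 (4851, on chromosome 9 from 136494433 to 136546048), the receptor most often mutated in T-cell leukaemia, was at 7.60 TPM and 8.24 TPM, a difference of 0.10. NOTCH2 and NOTCH3 together held 93.9% of the TPM of the 4 receptor genes in DMSO and 93.7% in CCA-1.1. NOTCH1 held 4.83% and 5.09%, and NOTCH4 held the remainder, at 2.03 TPM and 1.93 TPM. The make-up of the receptor pool was therefore almost the same in both libraries.

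By transcript, the curated NOTCH3 mRNA NM_000435.3 had 65.9 TPM with DMSO against 68.7 TPM with CCA-1.1. The predicted NOTCH3 transcript XM_005259924.5 was at 10.6 TPM and 9.36 TPM. NOTCH2 was carried almost wholly by NM_024408.4, which made up 99.7% of the gene in DMSO and 99.6% in CCA-1.1. NOTCH1 was divided between NM_017617.5, with 76.4% and 77.3% of the gene, and XM_011518717.3 with the remainder. NOTCH2 shares sequence with NOTCH2NLA, NOTCH2NLB, NOTCH2NLC and NOTCH2NLR, partial copies of its first exons, so reads from these regions were divided by estimation. The 4 copies summed to 16.5 TPM under DMSO against 19.9 TPM under CCA-1.1, which in DMSO is 23.2% of the level of NOTCH2. The value of NOTCH2 is uncertain to the extent that reads were exchanged with them, which was not tested.

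Of the ligands, JAG1 had the highest level in both libraries. JAG1 (182, on chromosome 20 from 10637684 to 10673999) encodes Jagged 1, one of the main Notch ligands, and has 1 transcript in the table, NM_000214.3. It had 12.8 TPM with DMSO against 14.7 TPM with CCA-1.1, 15.0% higher in CCA-1.1, with a difference of 0.19. JAG1 made up 92.8% of the TPM of JAG1, JAG2, DLL1, DLL3 and DLL4 in DMSO and 91.2% in CCA-1.1. DLL1 (28514, on chromosome 6 from 170282206 to 170291078), a Delta ligand, was listed at 0 with DMSO against 0.03 TPM with CCA-1.1. With the DMSO library at 0, no fold was computed. DLL3 and DLL4 were no higher than 0.06 TPM in either library.

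JAG2 (3714, on chromosome 14 from 105140995 to 105168776), the second Jagged ligand, had 0.95 TPM with DMSO against 1.33 TPM with CCA-1.1, with a difference of 0.26 that lay just under 1.2-fold. The pseudocount of 1 TPM weighs on a gene this low. With 0.1 TPM in its place the difference was 0.45, above the 0.39 of HES1, and JAG2 passed 1.2-fold. Its transcripts exchanged places. XM_047431352.1 had 0.54 TPM with DMSO against 0.02 TPM with CCA-1.1, and XM_047431353.1 was at 0.05 TPM and 0.76 TPM. The curated NM_002226.5 was at 0.23 TPM and 0.46 TPM. Every one of these values is below 1 TPM, and the read depth behind them is unknown.

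RBPJ (3516, on chromosome 4 from 26105449 to 26435131), the factor through which all Notch receptors reach DNA, had the highest level of the 10 genes in both libraries and was the one of the 8 measured genes that was lower in CCA-1.1. It had 90.35 TPM with DMSO against 81.6 TPM with CCA-1.1, with a difference of -0.14. The CCA-1.1 level minus the DMSO level was -8.72 TPM, of which -5.08 TPM was assigned to minor transcripts. The main mRNAs were NM_015874.6, with 46.6 TPM under DMSO against 44.4 TPM under CCA-1.1, and NM_203284.3, at 29.4 TPM and 28.0 TPM. Their sum was at 76.0 TPM and 72.4 TPM, a difference of -0.07. The other 13 transcripts above 0, none over 2.53 TPM, summed to 14.3 TPM under DMSO against 9.26 TPM under CCA-1.1, a difference of -0.58. Of these 13, 9 were lower and 4 were higher in CCA-1.1. Reads shared by RBPJ transcripts were divided by estimation, so these are not 13 separate measurements. The share of all transcripts that were lower was not computed. By this estimation, 15.9% of RBPJ in DMSO and 11.3% in CCA-1.1 was assigned to minor transcripts.

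**Figure D3:**
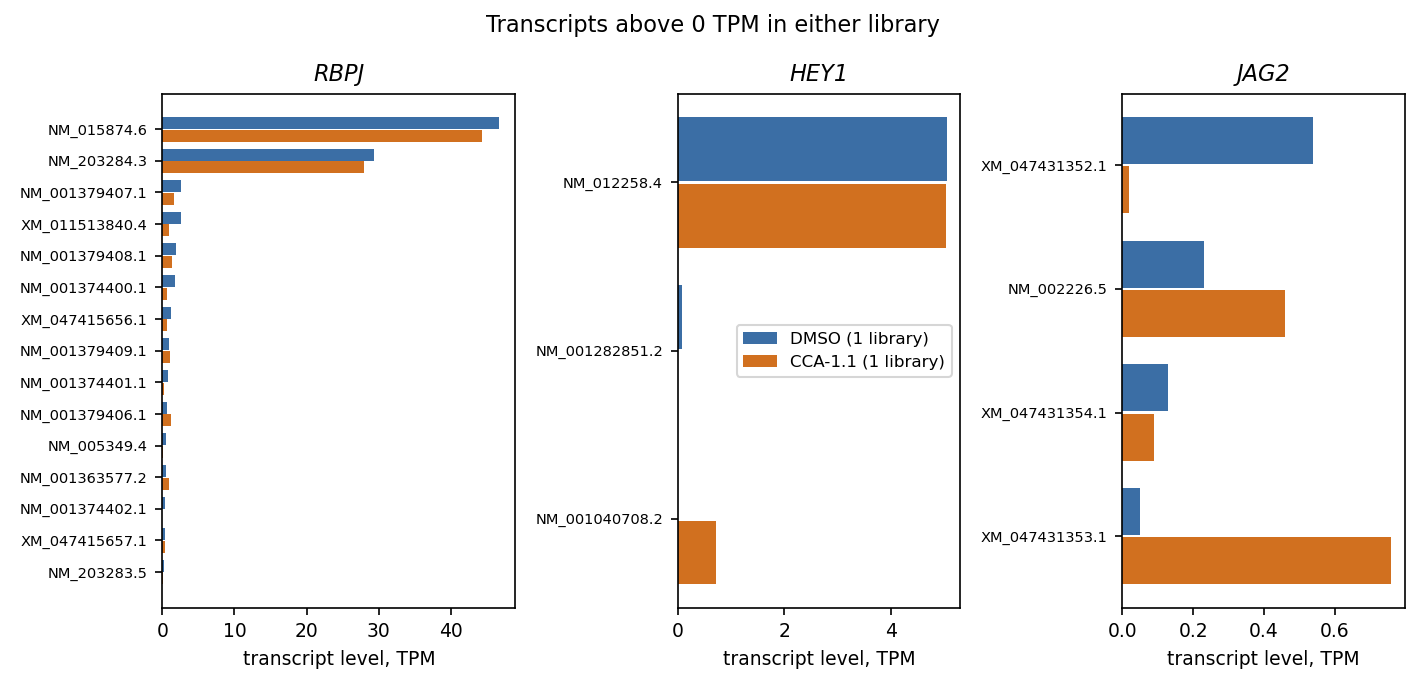
Level in TPM of each transcript above 0 in either library for RBPJ, HEY1 and JAG2, in the DMSO (blue) and CCA-1.1 (orange) libraries, each panel with its own axis from 0. The main RBPJ and HEY1 transcripts are close to level, the lower RBPJ bars are mostly shorter in CCA-1.1, and in JAG2 XM_047431352.1 (0.54 and 0.02 TPM) and XM_047431353.1 (0.05 and 0.76 TPM) exchange places.

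The table lists 38 transcripts of the 10 genes, of which 7 were at 0 in both libraries. None of the other 31 passed 2-fold on the log2(TPM + 1) scale, with differences from -0.92 for RBPJ XM_011513840.4 (2.53 TPM with DMSO, 0.86 TPM with CCA-1.1) up to 0.78, that of HEY1 NM_001040708.2. With a pseudocount of 0.1 TPM, 8 passed it, and with 0.01 TPM 11 did. The share of all transcripts past 2-fold at these smaller pseudocounts was not computed, so these counts have no background. Among all matched transcripts with a mean of at least 1 TPM, 6.97% passed 2-fold with the pseudocount of 1 TPM, and 14 of the 31 had such a mean. The exchange between transcripts was also measured per gene as the share of TPM that sits in different transcripts in each library. It was 0.153% for NOTCH2, 0.858% for NOTCH1, 1.92% for NOTCH3, 6.21% for RBPJ, 12.5% for HEY1 and 62.3% for JAG2. Over the 10652 genes that reach this mean and have more than 1 transcript above 0, the median was 8.63%, so the receptors and RBPJ lay below it. Of those genes, 98.5% had a lower share than JAG2. However, JAG2 averaged 1.14 TPM, a mean above that of only 2.56% of the 15485 genes, and each of its transcripts was below 1 TPM. Its share was not compared with genes of the same level.

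By level, the order in DMSO was RBPJ, NOTCH3, NOTCH2, JAG1, NOTCH1, HES1, HEY1 and JAG2, followed by DLL1 and HEYL at 0. In CCA-1.1 the order was the same except that HES1, at 9.01 TPM, stood above NOTCH1, at 8.24 TPM. With 1 library per condition, no neighbours in this order can be called different beyond their spread.

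The other genes of the pathway were taken from a list ordered by role, with 63 genes in all, of which 62 were matched and 47 averaged 1 TPM or more. For those 47 the median difference was 0.02, beside 0.03 over all genes, and it was -0.04 with curated transcripts only. Past 1.2-fold, HES1 was higher in CCA-1.1 and 4 genes were lower, namely FURIN, KAT2B, EOGT and PSENEN, and none passed 2-fold. These counts are 2.13% higher and 8.51% lower, against the 15.5% and 9.3% of all genes given above.

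FURIN, the protease that cuts Notch receptors on their way to the cell surface and also processes many other proteins, had the largest difference of the list, except with curated transcripts only, where KAT2B (-0.56) and DTX3 (0.55) exceeded it. It had 149.2 TPM with DMSO against 104.6 TPM with CCA-1.1, with a difference of -0.51. Both main transcripts were lower in CCA-1.1, with NM_001289823.2 at 82.0 TPM and 58.75 TPM and NM_001382620.1 at 58.0 TPM and 40.9 TPM. ADAM10, the main protease of ligand-induced cleavage, was at 58.6 TPM and 49.1 TPM, a difference of -0.25, and ADAM17 at 36.0 TPM and 38.1 TPM, a difference of 0.08.

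Of the 6 gamma-secretase genes, 5 were lower in CCA-1.1 and 1 was higher, with a median of -0.12. Beside them, 56.1% of the 15485 genes were higher in CCA-1.1, with a median of 0.03. Whether the 6 genes changed together was not tested. PSENEN, the subunit that completes the complex, had 86.7 TPM with DMSO against 70.7 TPM with CCA-1.1, with a difference of -0.29, and was the one of the 6 past 1.2-fold. PSEN2, a catalytic subunit at 10.8 TPM and 9.69 TPM, had a difference of -0.14 and passed that size, at -0.45, with curated transcripts only. NCSTN, which encodes the substrate-binding subunit nicastrin, was at 243.3 TPM and 209.4 TPM, a difference of -0.22. APH1B, at 12.1 TPM and 13.9 TPM, was the one that was higher, with 0.18.

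Among the 6 glycosyltransferases that modify Notch EGF repeats, EOGT, which adds O-linked N-acetylglucosamine, had 6.77 TPM with DMSO against 5.33 TPM with CCA-1.1, with a difference of -0.30. This is a sum of low transcripts, none above 1.78 TPM, that went in both directions. NM_001278689.2 was at 1.78 TPM and 0.83 TPM, and XM_005264743.3 was at 0.70 TPM and 1.32 TPM. The Fringe genes LFNG, MFNG and RFNG, which set the ligand preference of the receptors, had differences of -0.21, 0.16 and 0.10. POFUT1, the fucosyltransferase on which Fringe acts, was at 7.34 TPM and 7.17 TPM.

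In the nuclear complex, KAT2B and KAT2A, related histone acetyltransferases, lay at opposite ends. KAT2B had 3.19 TPM with DMSO against 2.37 TPM with CCA-1.1, with a difference of -0.31 that was -0.56 with curated transcripts only. KAT2A was at 38.5 TPM and 46.1 TPM, a difference of 0.25 that did not reach 1.2-fold. The Mastermind coactivators MAML1, MAML2 and MAML3 were at 12.7, 4.56 and 0.85 TPM in DMSO and at 12.35, 4.05 and 0.83 TPM in CCA-1.1. Among 6 corepressors measured, 3 were higher and 3 lower in CCA-1.1, such as SPEN at 18.5 TPM and 17.3 TPM, a difference of -0.09. The 9 genes of ubiquitination and endocytosis with a mean of at least 1 TPM, among them NUMB, MIB1 and ITCH, ran from -0.06 to 0.15, and neither group had a gene past 1.2-fold. With curated transcripts only, 2 genes passed it with the opposite sign. MIB1, at 24.2 TPM and 25.2 TPM, went from 0.06 to -0.45, and DTX3, a ubiquitin ligase gene at 48.05 TPM and 47.6 TPM, went from -0.01 to 0.55.

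Of the 9 target genes in the list, HES1, HES7, HEY1 and HEY2 had a mean of at least 1 TPM. HES7, an oscillating gene of somite formation, had the highest level when summed over its transcripts, with 22.3 TPM under DMSO against 21.2 TPM under CCA-1.1. Its difference was -0.07, and -0.48 with curated transcripts only. Most of its level lay in predicted transcripts, such as XM_047436941.1 at 9.62 TPM and 11.7 TPM. Of its curated transcripts, NM_032580.4 was listed at 0 and NM_001165967.2 was at 6.92 TPM and 4.69 TPM. By curated transcripts HES7 was thus below HES1, at 9.01 TPM, in CCA-1.1. HEY2 was at 2.92 TPM and 3.30 TPM, a difference of 0.13. HES4, HES5 and HEYL were listed at 0 in both libraries, and NRARP, a feedback inhibitor of Notch, was listed at 0 with DMSO against 0.11 TPM with CCA-1.1.

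**Figure D4:**
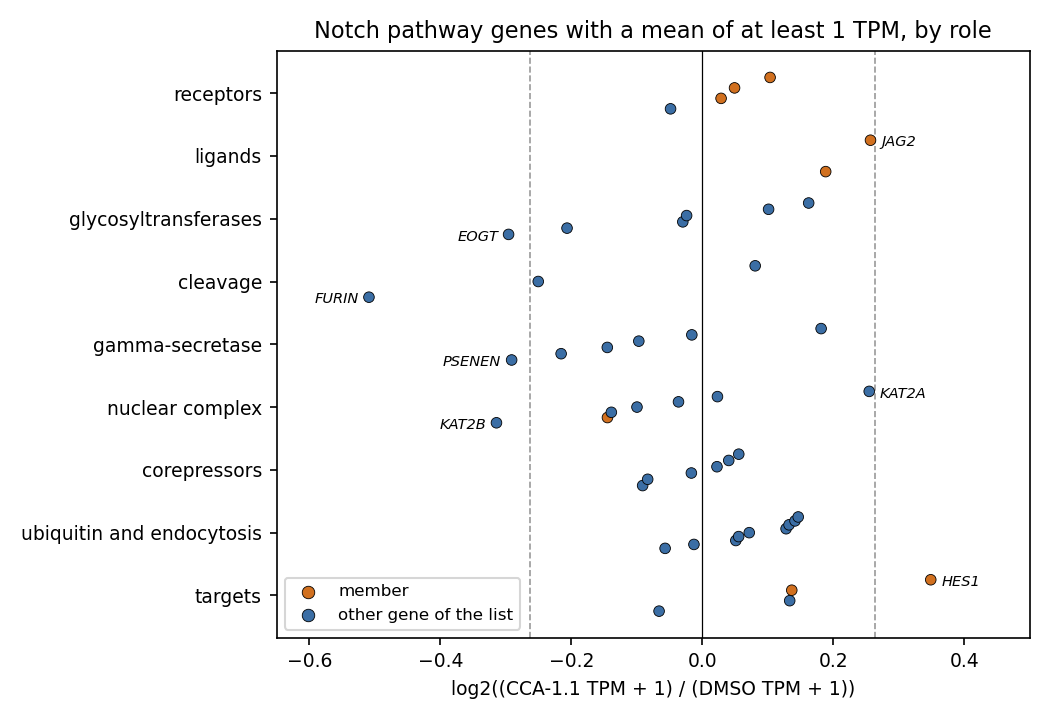
Difference between the libraries, log2((CCA-1.1 TPM + 1) / (DMSO TPM + 1)), for the 47 genes of the Notch list with a mean of at least 1 TPM, 1 point per gene, in rows by role, with the members described above in orange and other genes in blue. Dashed lines mark 1.2-fold, past which lie HES1 on the right and FURIN, KAT2B, EOGT and PSENEN on the left.

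The labelled cell type was checked against markers. VIM had 3217 TPM with DMSO against 3106 TPM with CCA-1.1, CD44 had 607.4 TPM and 472.6 TPM, and NES had 7.53 TPM and 7.62 TPM. OLIG2 was at 5.64 TPM and 7.03 TPM, and SOX2 was low, at 1.87 TPM and 1.45 TPM. GFAP was below 1 TPM and S100B was listed at 0 in both libraries. Of 5 markers each, those of endothelium summed to 4.74 TPM under DMSO against 3.93 TPM under CCA-1.1, and those of oligodendrocytes to 1.38 TPM and 2.18 TPM. Markers of microglia and blood summed to 496.2 TPM and 399.6 TPM, almost all of it CD68, a gene of lysosomes, with PTPRC below 0.1 TPM and AIF1 listed at 0. Neuronal markers summed to 251.1 TPM and 224.45 TPM, with 4 of the 5 at 1 TPM or more in both libraries. Most of the sum was TUBB3, SNAP25 had 22.0 TPM under DMSO against 16.8 TPM under CCA-1.1, SYT1 was at 11.4 TPM and 11.5 TPM, both above NES, RBFOX3 was at 1.83 TPM and 2.45 TPM, and STMN2 was listed at 0. The part of these markers in the Notch values was not tested.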

How the data were processed

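Transcript levels were measured in 2 libraries, 1 per condition. Illumina reads of enriched mRNA were checked by the authors with FastQC 0.11.9 and MultiQC 1.1, and transcripts were quantified by Kallisto pseudo-alignment with GRCh38.p14 as the reference. The deposited values are TPM, which the authors rounded, for 177816 transcripts, and each column sums to about 1000000. TPM keeps no read depth, so no counting interval can be given. Kallisto divides reads shared by transcripts by estimation.

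Transcripts were matched by RefSeq accession without version (169966 matched) and summed per gene. Differences used a pseudocount of 1 TPM, which understates changes of low genes. No p-value was calculated. Genes were named by a rule: the 10 members, pathway genes past 1.2-fold or with the 3 highest and 3 lowest differences, and member transcripts that were highest or past 2-fold. Other genes and transcripts were named after their values were seen. Members and lists were chosen with earlier results of these data known. Some pathway genes are counted in their groups and not reported singly here. CIR1, of the corepressor list, was not analysed here, and proteins were not compared. The procedure was tested on simulated data with changes well past 2-fold, in genes of at least 10 TPM and without a pseudocount. That simulation does not bear on differences near 1.2-fold or on lower genes. Python 3.11.15, numpy 2.4.6, pandas 2.3.3 and matplotlib 3.10.9 were used.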

Additional observations from a re-analysis of the deposited data

How the results depend on the processing

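No paired analysis was possible because each condition has a single library, so none could be left out either. Alternatives were a pseudocount of 0.1 or 0.01 TPM, scaling by the median ratio, curated or versioned transcripts only, the highest transcript only and other minimum means. Of 140 recomputed values, none of those past 1.2-fold reversed and 14 moved by over 1.2-fold or, for counts, 1.5 times. These were 10 counts and the differences of PSEN2, MIB1, DTX3 and HES7, all 4 with curated transcripts only, where MIB1, DTX3 and the median of the list (-0.04) changed sign. That setting leaves predicted transcripts out of the gene sums. Why these differed from the curated ones was not tested. The number of members higher in CCA-1.1, 7, was 6 with curated transcripts only and 5 with the highest transcript only, where HEY1 was at -0.0048. HES1 kept a difference between 0.34 and 0.39. With a pseudocount of 0.1 or 0.01 TPM, 2 members passed 1.2-fold, HES1 and JAG2, of which JAG2 had the larger difference, as did 2 genes of the list in that direction. With curated transcripts only, 2 genes of the list were higher (HES1 and DTX3) and 7 lower by that size, and with a minimum mean of 10 TPM 0 and 2 (FURIN and PSENEN), where HES1 is not counted. The number of member transcripts past 2-fold, 0 with 1 TPM, was 8 with 0.1 TPM and 11 with 0.01 TPM, settings chosen after seeing the data. No share over all transcripts was computed for these settings. The unknown depth limits every value below about 1 TPM, among them all JAG2 transcripts and the zeros of HEYL and DLL1.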

Other observations

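Some genes near the pathway, named here after their values were seen, differed by more than 1.2-fold. Over all genes, 15.5% were higher and 9.3% lower in CCA-1.1 by that size. DNER, a transmembrane protein described as a non-canonical Notch ligand, had 190.9 TPM with DMSO against 138.0 TPM with CCA-1.1, or -0.46 as a log2(TPM + 1) difference, and was thus far above JAG1 in level in both libraries. CCN3, a secreted protein reported to bind Notch1, was at 64.6 TPM and 52.6 TPM, a difference of -0.29. HES6, which encodes a bHLH protein that opposes HES1, was at 13.1 TPM and 17.2 TPM, a difference of 0.37. Of the ID genes, whose products inhibit bHLH factors, ID1 was at 105.9 TPM and 75.9 TPM and ID3 at 167.4 TPM and 120.3 TPM, with differences of -0.48 and -0.47, while ID2 was at 117.5 TPM and 102.4 TPM, a difference of -0.20. BHLHE40, a repressor of the same superfamily as HES1, was at 182.9 TPM and 242.3 TPM, a difference of 0.40, and its relative BHLHE41 was at 42.6 TPM and 42.8 TPM. MYC, at 21.1 TPM with DMSO and 31.6 TPM with CCA-1.1, had the largest difference of these genes, 0.57. TSPAN14, at -0.29, and NOTCH2NLB, at 0.28, also passed 1.2-fold. PCSK7 (-0.26), TSPAN5 (0.15), MFAP2 (0.18), FAM120B (0.06) and NALT1 (-0.06) did not. Nor did NOTCH2NLA (0.08), NOTCH2NLC (0.22) and NOTCH2NLR (0.06). None of these differences has a replicate, and their relation to the Notch genes was not tested.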
